A study of Mus musculus with 15 samples.

Results

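Id2, Bmp4 and Ccn2, a transcriptional inhibitor, a ligand and a matrix protein tied to BMP and TGF-beta signalling, were followed across 15 two-colour cDNA arrays. They were found by gene symbol in the platform annotation, in which Ccn2 also goes by the older name Ctgf. This gave 4 of 20205 probes, 1 each for Id2 and Bmp4 and 2 for Ccn2, or 3 of 9834 genes. The 3 genes were selected on earlier results of the same 15 arrays, their log2 ratios below 0, so these ratios are described here without a test.

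Each array compared a mouse line after treatment with itself untreated; the labels call it a lymphoid line of ES (embryonic stem) cells. Treated RNA carried Cy5 on 8 arrays, numbered 1 to 8 in the titles, and Cy3 on 7 dye swaps, numbered 9 to 15. The labels name no agent, dose or duration and give neither the number of cultures nor which arrays share RNA, so the spread between arrays may be technical. Groups were taken from the channel names, since the protocol text describes organs and a pool of control animals and not cultured cells. A ratio gives no level of a gene, so the lymphoid and ES character of the line could not be checked, and fewer cells of a type cannot be told apart from less RNA per cell.

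The deposited values are log2 ratios of both channels. Which channel is on top is not stated, and the values do not settle it. All 1117 placeholders for an empty channel were above 0 on the Cy5 arrays and all 882 were below 0 on the swaps. That is what treated over untreated gives if the Cy3 channel was the empty one, and what Cy5 over Cy3 gives if the untreated channel was. Signs are those of the deposited ratio, taken as treated over untreated after the data had been seen; values below 0 mean a lower level in treated cells only on that reading. Values with the dye swaps turned are given for Id2, Bmp4 and Ccn2. They are also given for the share of pathway genes below 0, the median of myeloid genes and counts of called genes. With the swaps turned 254 genes were called, against 4 as deposited. Treatment estimates of the other named genes are given as deposited only. Turned, some would change sign (Id1 from -0.19 to 0.15) and others would not (Smad4 from 0.35 to 0.099). Between 19213 and 19973 probes per array had a measured value. Arrays resembled one another little. The median Pearson r over probes was 0.083 between arrays of the same dye orientation and -0.058 between arrays of opposite orientation. Turning the swaps would reverse the sign of each r between opposite orientations and leave the others unchanged. Which reading holds was not tested. Arrays 7, 8 and 15 stood apart, with no r above 0.0835 to any other array, so results are also given without them. They also held 17, 30 and 39 placeholders, where the other arrays held between 130 and 239. Whether this difference bears on the values of Id2, Bmp4 and Ccn2 was not tested. The labels name no batch or date.

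BMP and TGF-beta ligands bind pairs of type I and type II receptor kinases at the cell surface, which phosphorylate SMAD proteins that then enter the nucleus with Smad4. Bmp4 is a secreted ligand that, in mouse ES cells, helps to maintain self-renewal together with LIF and, under other conditions, drives mesoderm formation. Id genes are classical direct targets of BMP signalling. ID proteins lack a DNA-binding region and hold basic helix-loop-helix factors such as the E proteins in inactive pairs; in lymphoid cells, Id2 is known for its role in innate lymphoid and natural killer cell development and for opposing the E proteins that drive the B cell programme. Ccn2, or connective tissue growth factor, is a secreted matrix-associated protein and a well-known target of both TGF-beta and the YAP and TAZ coactivators.

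The promoter stretches of Id2 and Bmp4 are shown because direct control of Id genes by SMADs is the textbook link between these genes. They are the 250 bases before the RefSeq transcription start (GRCm38.p6), both from the minus strand and written 5′ to 3′ in the direction of transcription, at chr12:25096093-25096342 for Id2 and chr14:46390670-46390919 for Bmp4. Capitals mark GGCGCC, a GC-rich SMAD site, and the SMAD box GTCT, which reads AGAC on the other strand.
Id2: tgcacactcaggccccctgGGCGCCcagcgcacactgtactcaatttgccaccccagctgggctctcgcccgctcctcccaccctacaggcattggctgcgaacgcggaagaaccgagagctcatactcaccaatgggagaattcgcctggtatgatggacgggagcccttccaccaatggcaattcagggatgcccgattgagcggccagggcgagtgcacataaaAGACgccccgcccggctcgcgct
Bmp4: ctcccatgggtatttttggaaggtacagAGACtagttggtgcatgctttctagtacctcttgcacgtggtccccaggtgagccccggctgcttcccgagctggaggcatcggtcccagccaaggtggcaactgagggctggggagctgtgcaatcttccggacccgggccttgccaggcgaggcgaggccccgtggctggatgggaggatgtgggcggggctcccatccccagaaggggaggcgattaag

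The Id2 stretch held GGCGCC once, starting 231 bases before the start, and the Bmp4 stretch held it 0 times; 9.59% of 32851 RefSeq promoter stretches of this length held it on either strand. Each held 1 SMAD box, 23 bases before the start of Id2 and 222 before that of Bmp4, as did 82.9% of all stretches at least once. The E-box CANNTG, the motif of basic helix-loop-helix factors, was found once before Id2 and 3 times before Bmp4 (66.2% of all stretches). Neither stretch held GGAATG, the motif of the YAP partner TEAD (12.6% of all), or the AP-1 motif TGANTCA (6.75% of all). A match in letters is a description and not a bound site. The promoter of Ccn2 is not shown.

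Id2 had the lowest mean ratio of the 3 genes. With the treated RNA in Cy5, its log2 ratio had a lowest value of -2.329 (array 7), a median of -0.59 and a highest value of -0.039 (array 8). On the dye swaps, the lowest value was -0.678 (array 15), the median -0.44 and the highest 0.105 (array 10). It was thus below 0 on all 8 Cy5 arrays and on 5 of the 7 swaps, the exceptions being array 10 and array 13 at 0.012, and the values of both orientations overlap.

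The treatment estimate, the mean of both orientation means in a limma fit over all genes, was -0.55 ± 0.13 for Id2 (SE, n = 15 arrays), a ratio of 0.685. This was the 29th lowest of 9720 genes fitted; with the swaps turned, Id2 was at -0.20 and ranked 1111th. Without array 7 it was -0.43, and without arrays 7, 8 and 15 it was -0.45. Id2 was picked on all of these arrays, so nothing is read from a value that stays low. Of 8297 genes measured on all 15 arrays, 0.603% were below 0 on at least the 13 arrays on which Id2 was. With the swaps turned Id2 was below 0 on 10 arrays, a number that 22.9% of genes reached; as Id2 was picked for its low ratio, nothing is read from these shares.

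Bmp4 lay close to 0 on most arrays. With the treated RNA in Cy5, its lowest value was -0.771 (array 8), its median -0.16 and its highest 0.062 (array 5). On the dye swaps, the lowest was -1.097 (array 15), the median -0.029 and the highest 0.240 (array 13). The lowest values of both orientations thus came from arrays 8 and 15, whose highest r with any other array was 0.083 and 0.034. Bmp4 was below 0 on 7 of 8 arrays and on 5 of 7 dye swaps.

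The treatment estimate of Bmp4 was -0.20 ± 0.09 (SE, n = 15 arrays), a ratio of 0.871 and the 562nd lowest of all genes; with the swaps turned it was at -0.0031 and ranked 4871st. Without array 15 it was -0.12, without arrays 8 and 15 it was -0.083, and without arrays 7, 8 and 15 it was -0.071. Of the genes measured on all arrays, 2.27% were below 0 on at least as many arrays as Bmp4 (12 of 15). With the swaps turned Bmp4 was below 0 on 9, which 34.4% reached. As Bmp4 was also picked for its low ratio, nothing is read from these shares.

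Ccn2 was represented by 2 probes that differed most on the dye swaps. The first probe (number 1677 on the platform) had a lowest value of -0.879 (array 1), a median of -0.38 and a highest value of 0.194 (array 3) with the treated RNA in Cy5. On the dye swaps its lowest value was -0.612 (array 11), its median -0.34 and its highest 0.371 (array 9). This probe was therefore mostly below 0 in both orientations, on 6 of 8 arrays and 6 of 7 dye swaps.

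The second probe of Ccn2 (number 2087) ran between -0.772 (array 2) and 0.070 (array 3) with the treated RNA in Cy5, with a median of -0.32. On the dye swaps it ran between -0.311 (array 10) and 0.840 (array 15), with a median of -0.033. It was below 0 on 6 of 8 arrays but on only 4 of 7 dye swaps, and its means were -0.34 ± 0.30 (SD, n = 8) with Cy5 and 0.15 ± 0.40 (SD, n = 7) with Cy3.

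The estimates of the probes of Ccn2 were -0.26 ± 0.09 for the first and -0.094 ± 0.090 for the second (SE, n = 15 arrays). Averaged to the gene, Ccn2 was at -0.18 ± 0.07 (SE), a ratio of 0.885, with 11 of 15 arrays below 0; 6.44% of the genes measured on all arrays reached that number. With the swaps turned it was at -0.15, ranked 1688th from the lowest and was below 0 on 10 arrays (22.9% of genes). Ccn2 was picked in the same way as Id2 and Bmp4, so nothing is read from these shares. Both probes were below 0 on 9 arrays, both above 0 on 2 and on opposite sides on 4. Over the arrays, with orientation means subtracted, the probes correlated at Pearson r = 0.22 (permutation p = 0.433) and Spearman rho = 0.086 (permutation p = 0.765). Leaving out arrays 3 and 9, farthest from the median of the first probe, gave r = 0.0090. Without arrays 7, 8 and 15, r was 0.54 over 12 arrays (permutation p = 0.0693; rho = 0.48, permutation p = 0.121), and 0.18 once arrays 3 and 9 were also left out. The comparison of the probes was chosen after their values had been seen.

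**Figure D1:**
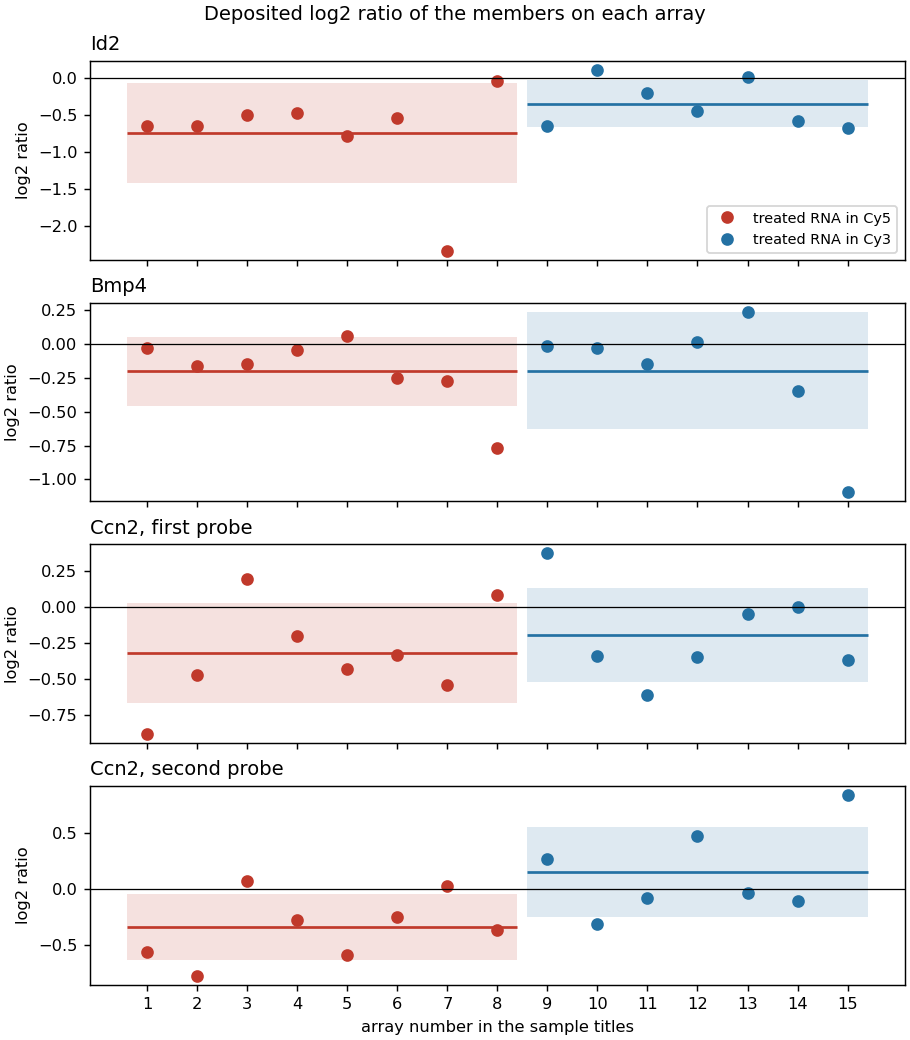
Deposited log2 ratio (y axis) of Id2, Bmp4 and both probes of Ccn2 on each of the 15 arrays (x axis, number in the titles). Red points have the treated RNA in Cy5 and blue points in Cy3; lines are orientation means and bands 1 SD. Id2 is below 0 on 13 arrays with array 7 at -2.329, Bmp4 is lowest on arrays 8 and 15, and the second probe of Ccn2 reaches 0.840 on array 15.

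**Figure D2:**
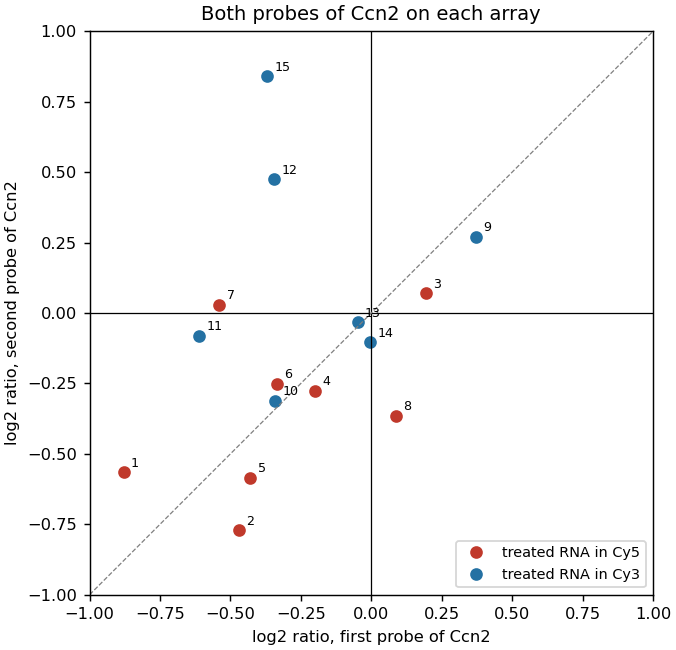
Log2 ratio of the first probe of Ccn2 (x axis) against the second (y axis), with array numbers beside the points, red for treated RNA in Cy5 and blue for Cy3; the dashed line marks equal values. Arrays 7, 8, 12 and 15 lie on opposite sides of 0 for the 2 probes.

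The dye effect, defined as 0.5 times the mean of arrays 1 to 8 minus the mean of arrays 9 to 15, did not choose the genes and was tested. It was -0.20 ± 0.13 for Id2 (SE, n = 15 arrays), from orientation means of -0.75 with Cy5 and -0.35 with Cy3, and did not pass limma's test (adjusted p = 0.434 over all genes). For Ccn2 it was -0.15 ± 0.07, from means of -0.33 with Cy5 and -0.021 with Cy3 (adjusted p = 0.247). Bmp4 had -0.0031 ± 0.0894, from means of -0.20 in both orientations (adjusted p = 0.990). Of all genes, 2.61% passed for the dye effect. A miss of the threshold does not show that a dye effect is absent, and for Ccn2 the orientation means differ by more than the size of the treatment estimate. If the dye swaps were turned, the dye effects would be the treatment estimates: -0.20 for Id2, -0.0031 for Bmp4 and -0.15 for Ccn2. Without array 7 the Id2 value was -0.086.

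The 3 genes did not vary together from array to array beyond what permutation gave. Permutation takes the arrays as interchangeable, and a miss over 15 arrays does not show that the genes vary independently. All 3 were below 0 on 8 arrays (1, 2, 4, 6, 7, 8, 11 and 14), 2 of them on 5 arrays and 1 on arrays 12 and 13. As all 3 were picked for ratios below 0, nothing is read from these counts. With orientation means subtracted, Id2 and Bmp4 correlated at r = 0.11 (rho = 0.17), Id2 and Ccn2 at r = -0.15 (rho = -0.12), and Bmp4 and Ccn2 at r = -0.35 (rho = -0.21). Over these 3 pairs and 15 arrays, raw permutation p-values of r were 0.642, 0.613 and 0.206, and 0.550, 0.656 and 0.457 for rho. Adjusted permutation p-values were 0.618 or more for r and 0.656 for rho. Without the pair of arrays farthest from the median of the first gene, r was 0.53 for Id2 and Bmp4, -0.35 for Id2 and Ccn2 and -0.067 for Bmp4 and Ccn2. Without arrays 7, 8 and 15 the r values were 0.31, -0.24 and -0.025.

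Genes whose deviations ran most like those of each of the 3 were named by the highest Pearson r over the 15 arrays, orientation means subtracted, among 8296 other genes. For Id2 these were Tmem259 (r = 0.94), Napa (r = 0.92), which encodes the vesicle fusion factor alpha-SNAP, and Myl10 (r = 0.91). Without arrays 7, 8 and 15 these values were 0.81, 0.73 and 0.61. For Bmp4 they were Nr1h3, the oxysterol receptor LXR-alpha (r = 0.89), Frmd8 (r = 0.88) and Glud1, glutamate dehydrogenase (r = 0.88), and 0.61, 0.67 and 0.63 without those arrays. For Ccn2 they were Mgat4f (r = 0.86), Scube1 (r = 0.80) and Gpr83 (r = 0.79), and 0.87, 0.77 and 0.78 without them. The median r over all genes was 0.011, 0.037 and -0.027 for Id2, Bmp4 and Ccn2. The genes are the highest of all those compared and share the arrays, so the values are a description. In the order named, their treatment estimates were -0.19, -0.26 and -0.12 for those most like Id2, -0.069, -0.049 and 0.23 for those most like Bmp4, and 0.038, 0.067 and 0.026 for those most like Ccn2.

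Among the relatives of Id2, none of 3 passed limma's test over all genes, where 0.0412% of all genes did. At an unadjusted p under 0.05 there were also 0, where 3.94% of all genes lay above 0 and 3.08% below. Id1, like Id2 a BMP target, was at -0.19 ± 0.10 (SE, n = 15 arrays; adjusted p = 0.738) and below 0 on 11 arrays, with orientation means of -0.038 with Cy5 and -0.34 with Cy3. Id3 was at 0.22 ± 0.24 (adjusted p = 0.849), from means of 0.69 with Cy5 and -0.25 with Cy3; its probes were at 0.41 over 10 arrays and -0.087 over 13. Id4 was at -0.063 ± 0.078 (adjusted p = 0.865). Differences between Id2 and its relatives were not tested.

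Of 12 listed basic helix-loop-helix partners, 6 were measured. None passed limma's test (0.0412% of all genes), and at an unadjusted p under 0.05 there were 0 (3.94% of all genes above 0 and 3.08% below). The E protein genes Tcf3, Tcf4 and Tcf12 were at -0.069 ± 0.048, -0.081 ± 0.065 and 0.058 ± 0.081 (SE). Tal1 and Lyl1, blood-forming factors that pair with E proteins, were at -0.038 ± 0.122 and -0.17 ± 0.11, and Ascl2 at -0.053 ± 0.076. Adjusted p-values of these 6 genes lay at 0.764 or above.

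Among other ligands, 13 of 32 listed were measured, 7 above 0 and 6 below, with a median of 0.0011 against 0.0054 over all genes. Bmp7, a further BMP ligand, was at -0.0057 ± 0.1925 (SE), and Tgfb1, Tgfb2 and Tgfb3 were at 0.0011 ± 0.0717, 0.18 ± 0.12 and 0.029 ± 0.058. The highest estimate was that of Gdf10 at 0.47 ± 0.37, from means of -0.26 with Cy5 and 1.21 with Cy3, and the lowest that of Inhba, the activin subunit, at -0.15 ± 0.17. Of ligand traps and activators, 12 of 28 were measured, with a median of 0.075. Dcn, decorin, a proteoglycan that binds TGF-beta, was highest at 0.21 ± 0.17. Bmp1, a protease that cleaves procollagens and the BMP trap chordin, was lowest at -0.36 ± 0.15 (below 0 on 12 of 14 arrays). No gene of either list passed limma's test.

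The receptors and SMADs did not share a direction. Of 20 receptors and coreceptors, 9 were measured, with a median of 0.026. Bmpr1b, a type I BMP receptor, was at -0.20 ± 0.17 (SE), Tgfbr2, the type II TGF-beta receptor, at 0.13 ± 0.08, and Neo1, neogenin, at 0.15 ± 0.11. Of 26 SMADs and regulators, 18 were measured, 11 above 0 and 7 below, with a median of 0.031. Smad1 and Smad5, which carry the BMP signal, were at 0.16 ± 0.08 and -0.072 ± 0.110. Smad2 and Smad3, which carry the TGF-beta signal, were at -0.0080 ± 0.1417 and 0.042 ± 0.085. Smad4, the partner of both branches, was at 0.35 ± 0.13 and above 0 on 12 of 15 arrays but did not pass limma's test (adjusted p = 0.577). Zeb1, a repressor that binds SMADs, was lowest at -0.21 ± 0.11. Bmp2, Bmpr1a, Bmpr2, Acvr1, Tgfbr1, Smad6, Smad7 and Smad9 had no tested probe under their symbols.

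The further BMP and TGF-beta targets were split. Of 37 listed, 22 were measured, 10 above 0 and 12 below, with a median of -0.0045. Besides Id3 at the upper end, Atoh8, a helix-loop-helix factor measured on 11 arrays, was lowest at -0.29 ± 0.29 (SE). The only other CCN gene measured was Ccn1, like Ccn2 a YAP target, at -0.088 ± 0.251 over 13 arrays. Its probes had 9 values each and were both lower, at -0.20 and -0.48, with SDs over arrays of 0.73 and 1.14. Of 9 measured YAP and TAZ targets other than Ccn2, Ccn1 included, 4 were above 0 and 5 below, with Wwc1, an upstream regulator of the Hippo pathway, at 0.29 ± 0.12 and the receptor kinase gene Axl at -0.26 ± 0.13. None passed limma's test. At an unadjusted p under 0.05 there were Ltbp2 above 0 and Tsc22d1 below among the 22 BMP and TGF-beta targets, and Wwc1 above 0 among the YAP and TAZ targets, where 3.94% of all genes lay above and 3.08% below.

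Over the 5 pathway lists together, 71 of 134 genes other than Id2, Bmp4 and Ccn2 were measured and 0 passed limma's test, where 4 of 9720 genes did so in all (0.0412%). At an unadjusted p under 0.05 there were 3 above 0 (Smad4, Tgif2 and Ltbp2) and 2 below (Bmp1 and Tsc22d1), where 3.94% of all genes lay above and 3.08% below at that level. The share of pathway genes below 0 was 45.1%, and over all genes it was 48.0%; with the swaps turned the shares were 50.7% and 50.8%. The lists were written with earlier results of these arrays known.

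**Figure D3:**
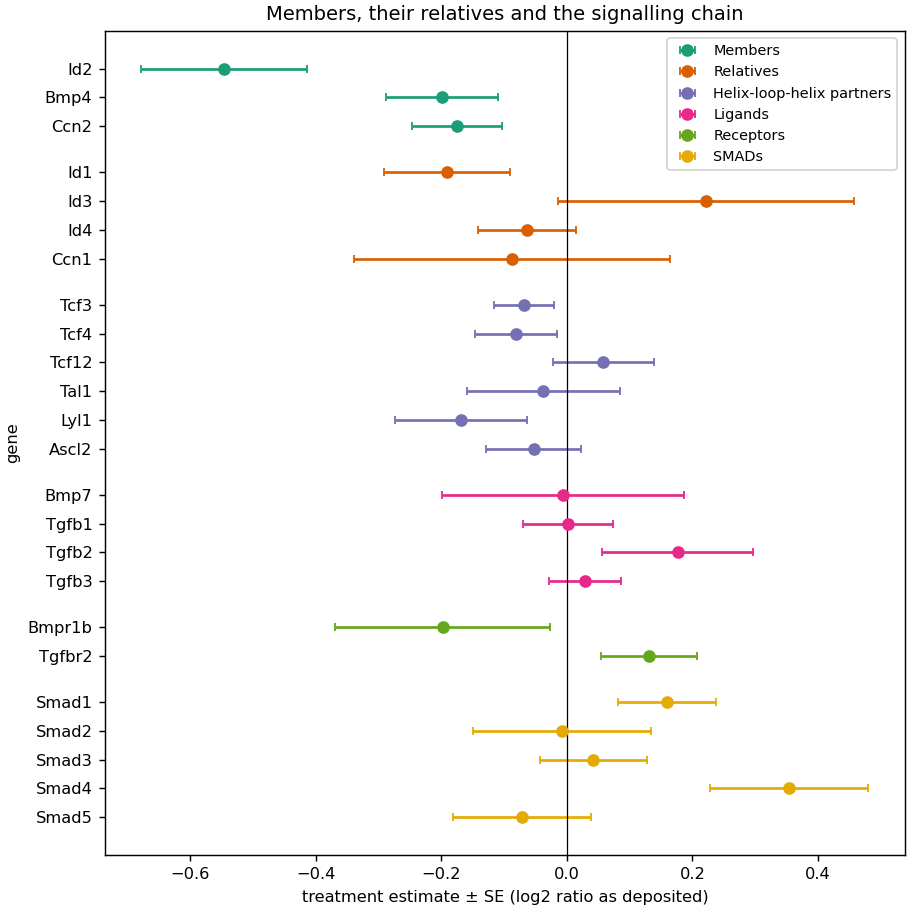
Treatment estimate with its SE (x axis, log2 ratio as deposited) for Id2, Bmp4 and Ccn2 and for relatives, partners and the ligands, receptors and SMADs fixed by name (y axis), from the fit of 15 arrays. Of the genes drawn, Id2 lies lowest at -0.55 and Smad4 highest at 0.35.

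Markers of cell states that BMP signalling or other cells could bring were read from the same fit. None passed limma's test as deposited. The 6 measured mesoderm and endoderm genes of 16 had a median of -0.0036, between Afp at -0.083 ± 0.072 (SE) and Gsc at 0.15 ± 0.21. Among 13 pluripotency genes the median was 0.052, with Esrrb at 0.45 ± 0.17 and Pou5f1 at -0.39 ± 0.22. Of 10 early lymphoid genes, with a median of 0.072, Ikzf1 was at 0.56 ± 0.25 and Gata3 at -0.22 ± 0.12. Over 24 fibroblast genes, which a feeder layer would bring, the median was 0.025 and the range -0.19 (Loxl1) to 0.21 (Dcn). Of 17 myeloid genes 12 were below 0 (48.0% of all genes were), with a median of -0.067 and a range of -0.30 (Camp) to 0.16 (Msr1). At an unadjusted p under 0.05 there were 1 pluripotency and 2 early lymphoid genes above 0, 1 fibroblast and 4 myeloid genes below 0, and 0 mesoderm and endoderm genes, where 3.94% of all genes lay above and 3.08% below. With the swaps turned, the median of the 17 myeloid genes was 0.044 and 1 of them passed limma's test. Each of the other marker lists had 0, where 2.61% of all genes passed. Whether a shift in cell types has a part in the ratios of Id2, Bmp4 and Ccn2 was not tested.

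**Figure D4:**
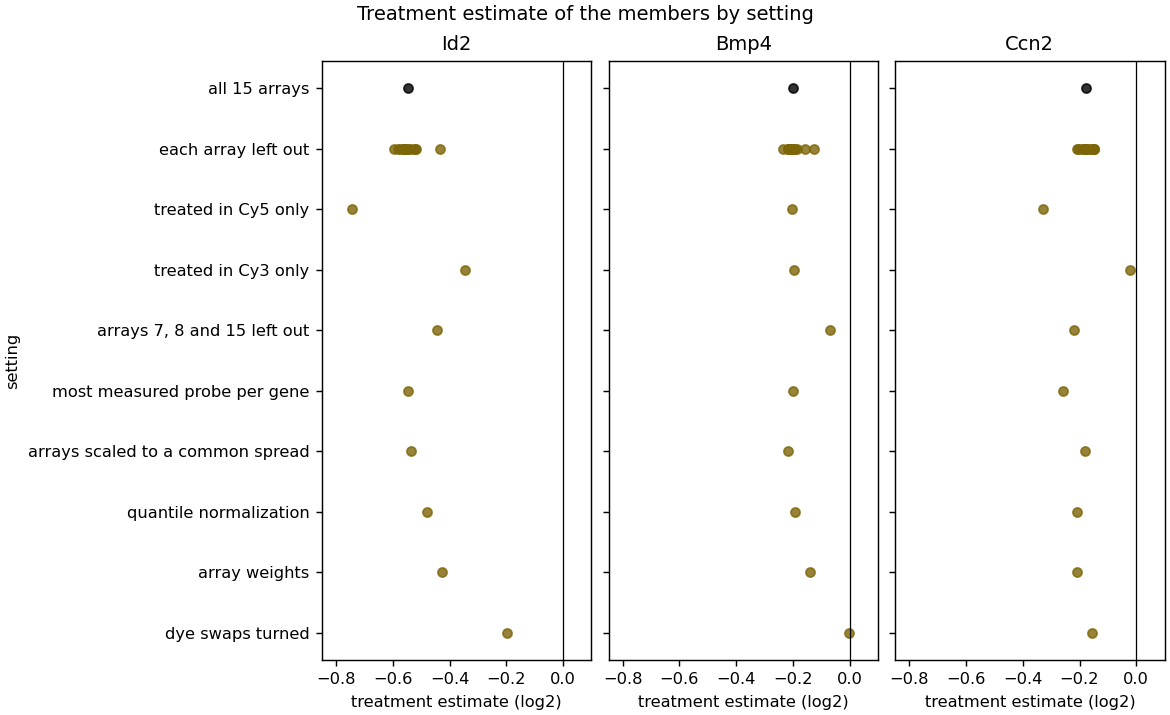
Treatment estimate (x axis, log2) of Id2, Bmp4 and Ccn2 under each setting (y axis), with the fit of all 15 arrays in black and 1 point per left-out array in the row below it. Estimates stay below 0 in each setting drawn, and come nearest to 0 for Bmp4 with the dye swaps turned (-0.0031; -0.071 without arrays 7, 8 and 15) and for Ccn2 with the treated RNA in Cy3 only (-0.021). The genes were chosen for ratios below 0 on these arrays.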

How the data were processed

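The values are log2 ratios of 2 channels as the authors deposited them; how they were normalized and background-corrected, and which channel is on top, is not stated. That the scale is log2 was inferred from spots of low signal, whose values sit at ratios of small integers plus 1 constant per array. Without scanner intensities, signal over background is unknown. Precision is limited by the 15 arrays or, if these share RNA, by the unknown number of cultures. SEs and p-values treat the arrays as independent and may then be too small. Values with an absolute log2 above 10, placeholders for an empty channel, were set missing; the largest absolute value among the 60 values of Id2, Bmp4 and Ccn2 was 2.329. Of these, 1 (second Ccn2 probe, array 14) sat within 0.0015 of a log2 ratio of small integers (up to 6) after the array's constant was taken off, as spots of very low signal do.

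The platform annotation named 1 gene for 13891 probes, more than 1 for 5 and no gene for 6309. RefSeq (GRCm38.p6) held 13855 of the identifiers. Probes of a gene were averaged. Genes with at least 4 values in each orientation (9720 of 9834) were fitted with limma 3.58.1 in R 4.3.3 with a dye term, Benjamini-Hochberg adjusted over all genes at 0.05, two-sided; the fit was checked on simulated data. Correlations used 100000 two-sided permutations. Named besides Id2, Bmp4 and Ccn2 were fixed relatives, receptors and SMADs, the highest and lowest gene of each list, and the 3 genes most alike. Acvrl1, Tgif2, Ltbp2 and Tsc22d1 were named after their values were seen. The genes and lists were chosen with earlier results of these data known. Alternatives covered left-out arrays, single orientations, turned swaps, probe choice, scaling, filters and weights.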

Additional observations from a re-analysis of the deposited data

Results flagged for a closer look

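With the treated RNA in Cy5, the Id2 value of array 7 (-2.329) lay far below the other 7 arrays, which ran between -0.777 and -0.039. Array 8 stood apart in the same way for Bmp4 (-0.771), with the other 7 arrays between -0.274 and 0.062. Chance alone sets apart about 1 group in 20 by Dixon's test. The groups were both orientations of Id2, of Bmp4, of each Ccn2 probe and of the Ccn2 mean. On the dye swaps, the Bmp4 value of array 15 (-1.097) fell just short, with a Dixon ratio of 0.559 against a critical value of 0.568. Acvrl1, a type I receptor of the TGF-beta family, differed between orientations, with a dye effect of -0.36 ± 0.08 (SE, n = 15 arrays; adjusted p = 0.0358 in limma) from means of -0.47 with Cy5 and 0.24 with Cy3.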

How the results depend on the processing

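The treatment estimates of Id2, Bmp4 and Ccn2 stayed below 0 in all settings run. The genes were chosen for ratios below 0 on these same arrays, so nothing is read from the constant sign. With the swaps turned and array 8 left out, Bmp4 was at 0.038. Leaving out each array in turn gave -0.60 to -0.43 for Id2, -0.24 to -0.12 for Bmp4 and -0.21 to -0.15 for Ccn2. Array weights gave -0.43, -0.14 and -0.21. As arrays were left out, dye effects ran from -0.25 to -0.086 for Id2 (-0.086 without array 7), -0.078 to 0.038 for Bmp4 and -0.19 to -0.13 for Ccn2, and none passed (lowest adjusted p = 0.162 in limma). The correlation of Id2 and Ccn2 was 0.21 with the first Ccn2 probe alone and 0.075 with orientation means kept, against -0.15. The count of genes called ran from 0 to 7 as arrays were left out (0 without array 10, 2 without array 11, 7 without array 6), where the fit of all arrays called 4. It was 0 in either orientation alone and without arrays 7, 8 and 15, 8 with the most measured probe or with placeholders left in, 11 with array weights, and 254 with dye swaps turned, by construction the dye calls. The pathway count was 1 (Acvrl1) with swaps turned, and 0 in the others. Causes were not tested. No paired analysis was possible because all arrays form 1 group and the titles pair none.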
